A study of Mus musculus with 18 samples.

Results

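The genes described here encode the proteins of the cytosolic ribosome. They were chosen by name: protein-coding genes of the GRCm38 annotation whose symbol is Rpl or Rps followed by a digit, plus Rplp0, Rplp1, Rplp2 and Rpsa, without the S6 kinases and the pseudogenes. The rule took 86 of the 34989 genes to which the deposited transcripts could be assigned. Of these, 31 encode proteins of the small (40S) subunit, 43 proteins of the large (60S) subunit and 3 the P-stalk, the large-subunit arm that recruits the GTPases of translation. A further 8 are paralogs or like-proteins of these, and 1, Rps19bp1, matched the rule by name although its product is a binding partner of Rps19 and not a ribosomal protein. The name rule used no measured value.

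The study asked how hours of cold storage, as in a donor heart before transplantation, change gene expression in the left and right ventricle (LV and RV). Hearts of C57B/L6 mice (the labels' spelling, C57BL/6J in the study's methods), given as 12 weeks old in the sample labels but younger in the methods, and of both sexes per the methods, were kept in ice-cold HTK, a histidine-buffered preservation solution, for 0, 4 or 8 h. All of them, the 0 h hearts included, were then perfused outside the body with Krebs buffer for 1 h before the ventricles were taken. There were no genetic changes and no drug arm, so the groups LV 0 h, LV 4 h, LV 8 h, RV 0 h, RV 4 h and RV 8 h, with 3 libraries each, differ in ventricle and storage time alone as far as the labels say. Every heart was perfused with buffer in place of blood, and no group was sampled before perfusion. The labels number the libraries 1 to 3 within a group without naming the heart, so p-values measure the spread between these libraries.

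A ribosome is built in the nucleolus from ribosomal RNA and a near-equal number of copies of most of its proteins. Cells therefore make the ribosomal proteins in step. In mammals most of their mRNAs begin with a 5′ terminal oligopyrimidine (TOP) tract, a cytosine at the first base followed by an unbroken run of cytosines and thymines, through which the kinase mTOR and the RNA-binding protein Larp1 set their translation and stability. Cardiac muscle is unusual in making a muscle-restricted paralog of the large-subunit protein Rpl3, named Rpl3l, and in shifting back towards Rpl3 under stress or growth.

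The starts of 10 of these genes are shown because the TOP tract is the sequence feature the family is known for. Each line is 30 bases of GRCm38.p6 from RefSeq, read 5′ to 3′ on the gene's strand, with 15 bases before the annotated start and 15 from it on. Capitals mark the run of C and T that opens the transcript when its first base is C and the run is at least 5 bases long.
Rpl15 (chr14:18270972-18271001, minus strand): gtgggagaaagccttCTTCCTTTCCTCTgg
Rpl35 (chr2:39005117-39005146, minus strand): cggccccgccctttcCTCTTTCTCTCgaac
Rps18 (chr17:33955651-33955680, minus strand): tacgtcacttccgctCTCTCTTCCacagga
Rps6 (chr4:86857353-86857382, minus strand): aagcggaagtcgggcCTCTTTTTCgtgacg
Rpl28 (chr7:4792950-4792979, plus strand): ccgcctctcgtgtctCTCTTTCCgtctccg
Rpl38 (chr11:114668565-114668594, plus strand): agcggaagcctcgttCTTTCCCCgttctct
Rps27 (chr3:90213634-90213663, minus strand): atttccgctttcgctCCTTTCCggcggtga
Rplp2 (chr7:141447636-141447665, plus strand): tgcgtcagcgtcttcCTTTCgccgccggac
Rpl22l1 (chr3:28805493-28805522, plus strand): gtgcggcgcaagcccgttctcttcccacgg
Rpl3l (chr17:24727811-24727840, plus strand): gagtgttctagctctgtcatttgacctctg
The first 8 carry such a run, and the lines of Rpl22l1 and Rpl3l, the paralogs whose values are set out below, have none at this base. Of the 86 genes, 66 were in the RefSeq table with 78 annotated starts, and 14 of these starts (17.9%) opened with the run. Over all 32851 starts of the table the share was 2.51%. An annotated start can lie a few bases from the one used in the heart, so a missing run says only that these letters are absent at this base. At 8 h against 0 h the 14 members with the run had a median log2 fold change of 0.47 in LV and 0.48 in RV, and the 51 tested members in the table without it had 0.43 and 0.46.

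The 18 libraries held 22481900 to 46068100 estimated counts. The ribosomal protein genes took 1.05% to 1.70% of them, and transcripts of the mitochondrial genome took 22.7% to 34.4%, with 32.0% to 34.4% at 8 h. The tissue was heart muscle by its markers: the summed level of 8 cardiomyocyte genes was 59135 to 70759 CPM (library counts scaled to a common total by the TMM method) at 0 h in LV and 61175 to 69683 in RV, and 5 of 6 lymphocyte markers stayed under 1 CPM in every library. In each of the 6 groups the library numbered 2 stood lowest for the family. Of the 85 members that passed the filter on low counts, 68 had their lowest value of the group in that library in LV 0 h, and 76 to 82 in the other 5 groups. Members moved together within groups: the median Pearson correlation between 2 members over the 18 libraries, after each group's mean was taken out, was 0.86, a description of libraries that share depth and scaling.

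Levels of different genes can be compared only per length, and TPM, the authors' length-corrected estimate of each transcript's share, was used for that. Rplp1, a P-stalk protein, led with a mean of 1006 TPM over the 18 libraries (788 to 1307), followed by Rps2 at 880 TPM (645 to 1096), a small-subunit protein near the mRNA entry. The ranges of both overlapped, so their order was not separated by the spread between libraries. The lowest were Rpl39l at 0.23 TPM and Rpl10l at 0.42 TPM, both paralogs known from testis, and Rps19bp1 at 8.90 TPM (6.69 to 15). The 77 core proteins, most of which are needed in near-equal numbers, spanned 15.1 to 1006 TPM, a ratio of 66.4, with a median of 340 TPM.

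Many of these genes have processed pseudogenes, intronless copies of an mRNA elsewhere in the genome. A search by sequence found 590 other annotated genes at least 95% identical to a member's coding transcript over at least 80% of their own length, belonging to 80 of the 86 members, and 567 of them are annotated as processed pseudogenes. Reads that match a gene and its copy equally well can be divided between them only by estimate. Rpl5, which with Rpl11 carries the 5S RNA into the large subunit, was listed at 15.1 TPM (counts of 334 to 709 per library), while a pseudogene on chromosome 7 (114705217 to 114706235, Gm15500), identical over 1018 of its 1019 bases, was listed at 340 TPM. Rps12, a small-subunit protein, was listed at 26.9 TPM and its intronless copy Rps12-ps3 on chromosome 19 (59322290 to 59322783), which the annotation types as protein coding, at 531 TPM. Rpl12, a protein at the base of the P-stalk, was listed at 17.5 TPM and its copy Gm10275 on chromosome 10 (29698746 to 29699380) at 305 TPM.

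Near copies held more than 10% of the summed counts for 22 members and more than 50% of them for 9. For Rpl5, Rps12 and Rpl12 the copies held 94.0%, 92.2% and 89.96%. With the copies added to their parents, the 77 core proteins lay between 126 and 1010 TPM, a ratio of 7.99, and the standard deviation of log2 TPM fell from 1.19 to 0.56. Rps12 moved from rank 79 to rank 15 of the 86, Rpl12 from 81 to 58 and Rpl5 from 83 to 48.

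**Figure D1:**
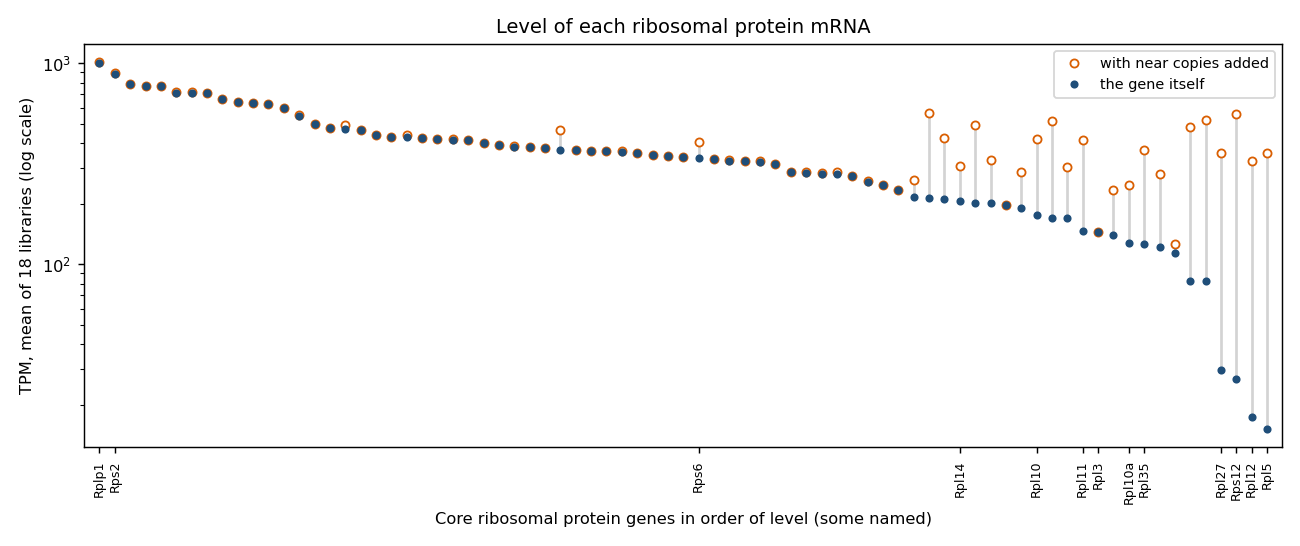
Mean TPM over the 18 libraries (log axis) of the 77 core ribosomal protein genes, ordered by their own level and named in part, with filled points for the gene itself and open points for the gene plus its near copies. The filled points run from 1006 down to 15.1 TPM, and with the copies added none lies under 126 TPM.

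After 8 h of storage nearly the whole family stood higher than at 0 h, in both ventricles. In LV the median log2 fold change over the 85 tested members was 0.43 (quartiles 0.38 and 0.51) against -0.02 over all 14564 genes tested, and 83 of 85 were above 0 where 48.3% of all genes were. In RV the median was 0.47 (quartiles 0.38 and 0.58) against -0.07 over all 14646 genes, and 82 of 85 were above 0 where 45% of all genes were. After 4 h the same medians were 0.18 in LV and 0.17 in RV, with 83 and 81 of 85 above 0 beside 49.3% and 50.3% of all genes. With 1 library left out, the 4 h medians ran from 0.12 (without LV 4 h number 3) to 0.29 (without LV 4 h number 2) in LV, and from 0.0733 (without RV 0 h number 2) to 0.28 (without RV 4 h number 2) in RV. When libraries were scaled by their totals alone, the median of all genes itself moved to -0.12 in LV and -0.16 in RV after 4 h, and to -0.17 and -0.30 after 8 h. The family then stood above 0 in 66 and 44 of 85 members at 4 h and in 82 and 80 at 8 h, and its median lay 0.18, 0.17, 0.45 and 0.55 above that of all genes in the same order. The 4 h and 8 h comparisons of a ventricle share their 0 h libraries. In bulk tissue, fewer cells of a type and less RNA per cell cannot be told apart.

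Single members seldom passed the test at this size of change. Calls required an adjusted p under 0.1 (edgeR quasi-likelihood test, Benjamini-Hochberg over all genes) and a fold change over 1.5. At 8 h in LV, 2 of 85 members were called (2.35%), beside 6.05% of all genes, and 8 (9.41%) rose by the adjusted p alone, beside 5.4% of all genes. At an unadjusted p under 0.05 there were 66 members, beside 23.1% of all genes. At 8 h in RV, 9 members were called (10.6%), beside 18% of all genes, and 10 (11.8%) rose by the adjusted p alone, beside 13.7%. At an unadjusted p under 0.05 there were 29, beside 30.6%. No member fell in either ventricle, although Rpl3l fell in RV with library totals alone. Calls with the fold threshold were thus a smaller share of the family than of all genes in both ventricles, while in LV the share passing by p was larger.

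At 4 h no member was called in either ventricle by edgeR, beside 2.52% of all genes in LV and 9.83% in RV, and none rose by the adjusted p, beside 2.24% and 6.38%. No member had an unadjusted p under 0.05 there, beside 15.1% and 21.3% of all genes, and DESeq2 called none. Nor was any called between 8 h and 4 h, where 0 of all genes were called in either ventricle. At an unadjusted p under 0.05, edgeR had 7 members in LV and 1 in RV in that comparison, beside 8.12% and 6.6% of all genes, and DESeq2 called none. With the replicate number as a block, 47 members in LV and 17 in RV had an unadjusted p under 0.05, beside 12.6% and 15.5% of all genes, and none passed the adjusted p. Within a number, 79 to 83 of 85 members were higher at 8 h than at 4 h in LV and 78 to 81 in RV. The share of all genes within a number was not computed, and members that move together are not independent observations. The medians between 8 h and 4 h were 0.27 in LV and 0.32 in RV, beside 0.03 and 0.01 over all genes, with 83 and 81 of 85 members above 0 beside 53.9% and 51.3% of all genes.

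Libraries of the same number tended to deviate together, in RV with correlations of 0.11 to 0.28 between 0 h and the later times. The block was chosen from these same data, so its p-values are not independent support for the rise. In RV, where libraries of the same number deviated together at all 3 times, a fit with the replicate number as a block gave 13 members called at 8 h, beside 24.2% of all genes, and 58 of 85 (68.2%) rising by the adjusted p, beside 18.5% of all genes. Within the libraries numbered 1, 2 and 3 of RV, 83, 80 and 82 of the 85 members were higher at 8 h than at 0 h. The median log2 differences were 0.45, 0.25 and 0.58. The share of all genes higher within a number was not computed. Members moved together, so these counts are not independent observations. Without the library RV 8 h number 2 the unblocked fit called 50 members. It called 0 without RV 0 h number 2 or number 3, 2 without RV 8 h number 1 or number 3, 3 without RV 0 h number 1, 6 without RV 4 h number 1 or number 2 and 5 without RV 4 h number 3. In LV it called 45 without LV 8 h number 2. It called 0 without any of the 3 LV 0 h libraries, LV 4 h number 1, LV 8 h number 1 or LV 8 h number 3, and 1 without LV 4 h number 2. Calls over all genes moved with the library left out as well. In LV 1292 genes were called higher and 504 lower without LV 8 h number 2, and 115 and 12 without LV 0 h number 2. With all 9 libraries there were 701 and 180. In RV there were 1003 and 228 without RV 0 h number 2, beside 1862 and 774 with all 9. The median over the members stayed above 0 in all of these leave-one-out fits, from 0.35 to 0.61 for LV and from 0.29 to 0.64 for RV.

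**Figure D2:**
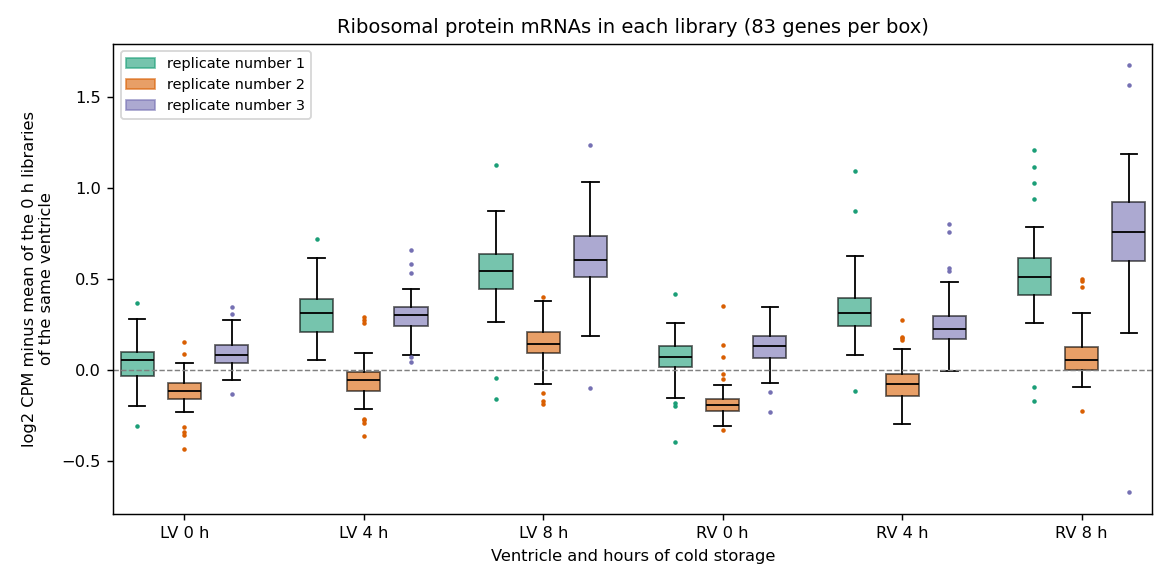
Log2 CPM of each member minus its mean in the 0 h libraries of the same ventricle, as 1 box per library (83 genes, without the low-count Rpl10l and Rps27rt; box, quartiles; line, median; whiskers, 1.5 interquartile ranges), colored by replicate number. The boxes of number 2 sit lowest in every group, and the boxes at 8 h sit above those of the same number at 0 h.

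Among the 3 libraries of each group the separation was more frequent in LV. In LV, 46 of 85 members had all 8 h libraries above all 0 h libraries, beside 15.5% of all genes, and none had them all below, beside 13.1%. In RV, 14 had all 8 h libraries above, beside 18.4% of all genes, and 1, Rpl10l, had all below, beside 17%. The wider RV range at 8 h came with the library numbered 3, whose median member stood 0.75 above the RV 0 h mean on the log2 scale while that of number 2 stood 0.05 above it.

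Among small-subunit proteins, all 31 were above 0 at 8 h in both ventricles, with medians of 0.44 in LV and 0.49 in RV, except that Rps2 in RV was at -0.04 with library totals alone. By the adjusted p, 1 rose in LV and 2 in RV, beside 5.4% and 13.7% of all genes. With the replicate number as a block, 21 rose in RV, beside 18.5%. Rps19, mutated in the inherited anemia Diamond-Blackfan, was at 95.3, 76.3 and 98.8 CPM in the RV 0 h libraries numbered 1, 2 and 3, and at 154, 100.1 and 204 CPM at 8 h. All of the 8 h values lay above all of the 0 h values, and edgeR gave a log2 fold change of 0.78 ± 0.27 (SE, adjusted p = 0.086). In LV it went from 92.8, 78.1 and 94.1 CPM to 148, 94.7 and 159 CPM, with a log2 fold change of 0.60 ± 0.20 (edgeR adjusted p = 0.13).

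Rps6, the phosphorylation target of the S6 kinases whose start is printed above, was at 182, 192 and 176 CPM in RV at 0 h and at 235, 212 and 302 CPM at 8 h. These groups did not overlap, but the log2 fold change of 0.46 missed the threshold (edgeR adjusted p = 0.14), as did that of 0.34 in LV (edgeR adjusted p = 0.20). Rps27a, made as a fusion with ubiquitin, had log2 fold changes of 0.44 in LV and 0.70 in RV (edgeR adjusted p = 0.18 and 0.11). For Rpsa, also known as the laminin receptor, they were 0.52 and 0.60 (edgeR adjusted p = 0.14 for both). For Rps3, which lines the mRNA entry channel, they were 0.37 and 0.49 (edgeR adjusted p = 0.29 and 0.22). With the block, Rps27a rose in RV (edgeR adjusted p = 0.033), as did Rpsa (edgeR adjusted p = 0.054) and Rps3 (edgeR adjusted p = 0.091), whereas Rps6 missed the threshold (edgeR adjusted p = 0.11). The high-level Rps2 had 0.31 in LV and 0.19 in RV (edgeR adjusted p = 0.34 and 0.55). Rps4x, carried on the X chromosome, had 0.25 and 0.42 (edgeR adjusted p = 0.37 and 0.22). For Rps27a, Rps3, Rps2 and Rps4x the libraries overlapped in both ventricles, and for Rpsa in RV.

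Among large-subunit proteins, all 43 were above 0 at 8 h in both ventricles, with medians of 0.44 in LV and 0.47 in RV, except that Rpl10 was below 0 under some alternatives given with it. By the adjusted p, 7 rose in LV and 5 in RV, and 32 rose in RV with the block, beside 5.4%, 13.7% and 18.5% of all genes. Rpl41 and Rpl38 were called in LV. Rpl41, a very short basic peptide, was at 144, 162 and 176 CPM at 0 h and at 274, 197 and 282 CPM at 8 h. Its 8 h values all exceeded its 0 h values, and it rose by 0.65 ± 0.18 (SE) on the log2 scale (edgeR adjusted p = 0.080). Rpl38, known for its part in translating Hox mRNAs, was at 43.5, 45.1 and 54.8 CPM at 0 h and at 82.8, 56.1 and 83.8 CPM at 8 h. It rose by 0.64 ± 0.18 (edgeR adjusted p = 0.092). In RV the libraries of both genes overlapped between 0 h and 8 h, and their log2 fold changes of 0.56 and 0.58 had edgeR adjusted p = 0.21 and 0.17.

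Also past the adjusted p in LV, with changes below or at the edge of the fold threshold, were Rpl11, Rpl10a and Rpl3, together with Rps26, Rpl13 and Rpl17, which are named after their values were seen. Rpl11, the partner of Rpl5 that also binds the p53 regulator Mdm2, went from 56.7, 61.2 and 69.2 CPM to 85.0, 80.9 and 85.7 CPM, and rose by 0.43 on the log2 scale (edgeR adjusted p = 0.081). Its near copies held 54.3% of the summed counts, and with them added the adjusted p was 0.15 (edgeR). Rpl10a, a protein of the L1 stalk where spent tRNA leaves, rose in both ventricles, by 0.56 ± 0.15 in LV (edgeR adjusted p = 0.083) and by 0.66 ± 0.20 in RV (edgeR adjusted p = 0.058). In RV it stood at 52.7, 57.7 and 66.5 CPM at 0 h and at 92.9, 72.2 and 111 CPM at 8 h.

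Rpl39 lines the tunnel through which the new chain leaves. In RV it was at 39.6, 29.5 and 35.5 CPM at 0 h and at 59.4, 40.1 and 74.6 CPM at 8 h, and rose by 0.76 ± 0.26 on the log2 scale (edgeR adjusted p = 0.084). Rpl34, on the outer face of the subunit, was at 81.5, 66.8 and 88.0 CPM there at 0 h and at 123, 88.7 and 155 CPM at 8 h, and rose by 0.65 ± 0.24 (edgeR adjusted p = 0.097). The lowest 8 h value of each gene was close to its highest 0 h value, and each time it came from the library numbered 2. In LV their log2 fold changes were 0.50 and 0.48 (edgeR adjusted p = 0.21 and 0.16).

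Rpl13a, which also silences mRNAs when released from the ribosome, had log2 fold changes of 0.43 in LV and 0.55 in RV (edgeR adjusted p = 0.19 and 0.17). Rpl7 had 0.29 and 0.44 (edgeR adjusted p = 0.28 and 0.20), and Rpl36a had 0.36 and 0.37 (edgeR adjusted p = 0.14 and 0.21). All 3 were past the threshold in RV with the block, at adjusted p from 0.071 to 0.099 (edgeR).

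The P-stalk genes Rplp0, Rplp1 and Rplp2 were all above 0, and none passed. Rplp1 was at 227, 215 and 253 CPM in LV at 0 h and at 360, 246 and 368 CPM at 8 h, a log2 fold change of 0.49 (edgeR adjusted p = 0.17). Rplp0, the anchor of the stalk, was at 480, 448 and 460 CPM and then at 570, 507 and 609 CPM, with 0.28 (edgeR adjusted p = 0.26), and its groups did not overlap. Rplp2 had 0.47 in LV (edgeR adjusted p = 0.14). In RV the 3 log2 fold changes were 0.26 for Rplp0, 0.52 for Rplp1 and 0.41 for Rplp2 (edgeR adjusted p = 0.32, 0.19 and 0.30), and the block brought Rplp1 past the threshold (edgeR adjusted p = 0.082).

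**Figure D3:**
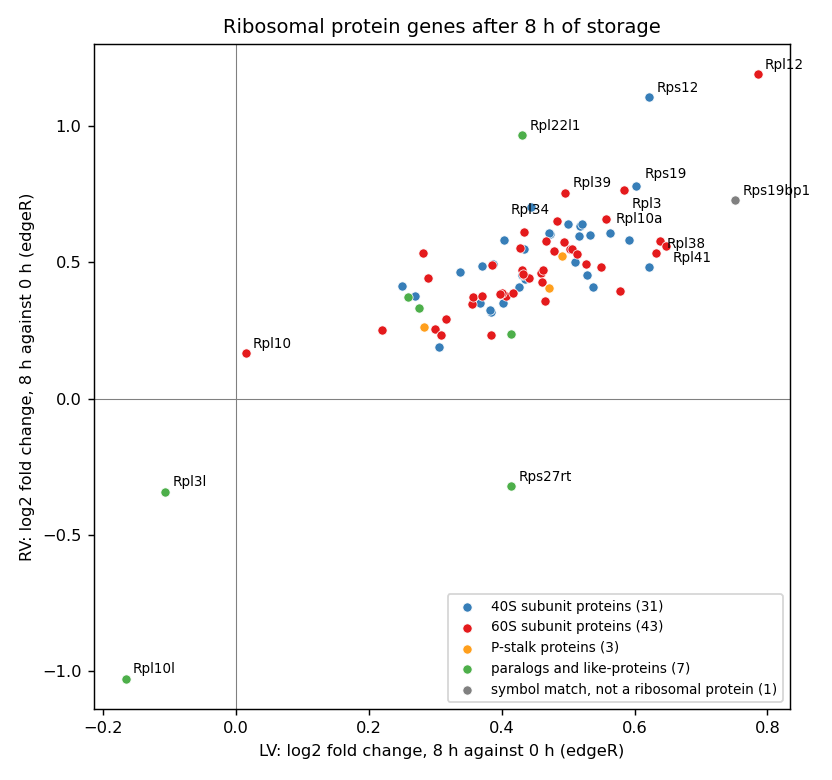
Log2 fold change at 8 h against 0 h in LV (horizontal) and RV (vertical) for the 85 tested members, colored by role, with the called genes and 4 paralogs or parents labelled. Apart from Rpl3l, Rpl10l and Rps27rt, all points lie above 0 on both axes, although Rpl10 in both ventricles and Rps2 in RV fall below 0 with library totals alone.

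Among the paralogs the signs were mixed. Rpl3 helps shape the peptidyl transferase center, and Rpl3l takes its place in heart and skeletal muscle. Rpl3 (chromosome 15, 80077791 to 80091868) was at 121, 112 and 120 CPM in LV at 0 h and at 205, 130 and 191 CPM at 8 h. In RV it was at 129, 109 and 126 CPM and then at 231, 133 and 246 CPM. All 8 h libraries lay above all 0 h libraries in both ventricles, and Rpl3 rose by 0.58 ± 0.17 on the log2 scale in LV (edgeR adjusted p = 0.0995) and by 0.77 ± 0.25 in RV (edgeR adjusted p = 0.073).

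Rpl3l (chromosome 17, 24727820 to 24736143) did not pass in either ventricle. It was at 214, 173 and 204 CPM in LV at 0 h and at 190, 174 and 183 CPM at 8 h, and in RV at 226, 186 and 239 CPM and then at 191, 184 and 135 CPM. These groups overlapped, and its log2 fold changes of -0.11 ± 0.15 in LV and -0.34 ± 0.19 in RV missed the threshold (edgeR adjusted p = 0.68 and 0.25). With library totals alone it fell by 0.57 on the log2 scale in RV (edgeR adjusted p = 0.056). Over the 18 libraries Rpl3l averaged 189 TPM and Rpl3 144 TPM.

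Within each library the TPM ratio of Rpl3 to Rpl3l compares the pair free of the scaling between libraries. It was 0.594, 0.677 and 0.621 in LV at 0 h and 1.12, 0.781 and 1.08 at 8 h. In RV it was 0.592, 0.603 and 0.551 at 0 h, 0.665, 0.678 and 0.715 at 4 h, and 1.26, 0.760 and 1.78 at 8 h. At 8 h every library of either ventricle had a higher ratio than every 0 h and 4 h library of that ventricle, and in RV the 4 h libraries also lay above the 0 h libraries. In LV the 4 h ratios of 0.669, 0.735 and 0.674 overlapped those at 0 h. A two-sided exact permutation test gave p = 0.1 for each of the separated comparisons, the smallest value that 3 libraries against 3 can give. The ratio was formed after both genes had been seen. Because Rpl3l is muscle-restricted, the ratio can also move with the share of cardiomyocyte RNA in the tissue. The summed cardiomyocyte markers of the 8 h libraries numbered 1, 2 and 3 were 49580, 53438 and 43337 CPM in LV. In RV they were 49880, 58830 and 29309 CPM. A shift within cardiomyocytes and a change in their share cannot be told apart here, and neither was tested. Ratios of 3 other parent and paralog pairs were tested in the same way. Rpl22 to Rpl22l1 was lower at 8 h than at 0 h in every RV library (exact permutation p = 0.1) and overlapped in LV (exact permutation p = 0.7). Rps27 to Rps27l was higher in RV at 8 h (exact permutation p = 0.1), Rpl36a to Rpl36al lower in RV at 4 h (exact permutation p = 0.1), and the other 15 comparisons of these pairs overlapped.

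**Figure D4:**
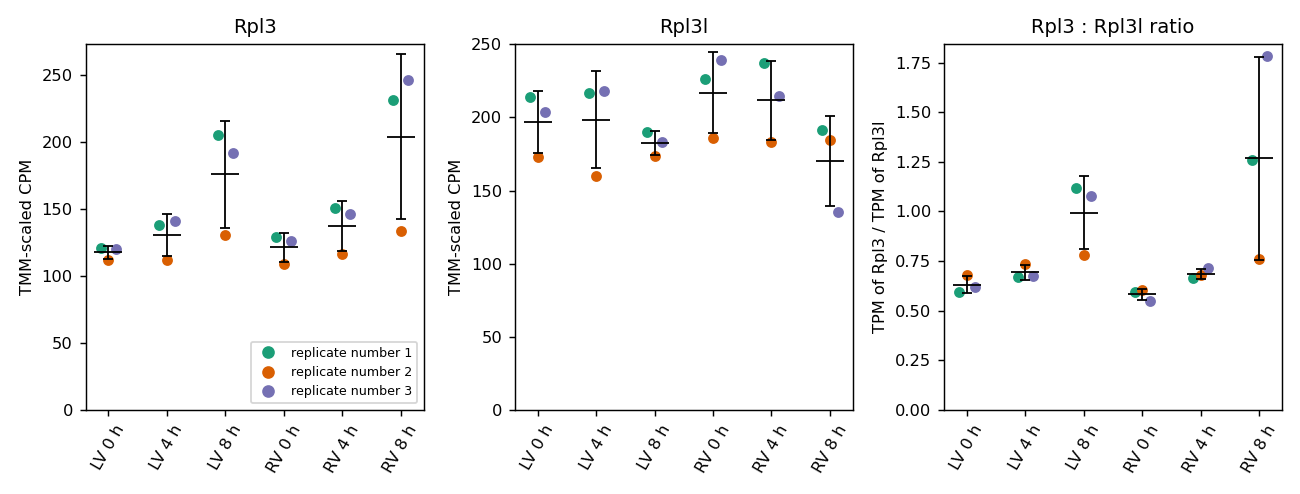
TMM-scaled CPM of Rpl3 (left) and Rpl3l (middle) and the TPM ratio of the pair (right) in each library, colored by replicate number, with the group mean and SD (n = 3) in black. The group mean of Rpl3 is highest at 8 h in each ventricle, although some 4 h libraries lie above the 8 h library numbered 2. The mean of Rpl3l is not highest at 8 h, and the ratio at 8 h (0.760 to 1.78) lies above the ratios at 0 h (0.551 to 0.677).

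Rpl22l1, a paralog of the RNA-binding protein Rpl22, was called in RV and not in LV. In RV it was at 21.6, 14.2 and 13.7 CPM at 0 h, at 34.5, 16.1 and 23.8 CPM at 4 h and at 37.4, 22.8 and 35.6 CPM at 8 h. It rose at 8 h by 0.97 ± 0.31 on the log2 scale (edgeR adjusted p = 0.070). In LV it was at 16.9, 10.3 and 15.6 CPM at 0 h and at 20.9, 12.2 and 24.6 CPM at 8 h, where the groups overlapped and the log2 fold change of 0.43 missed the threshold (edgeR adjusted p = 0.37). With the block it also rose at 4 h in RV, by 0.56 ± 0.18 (edgeR adjusted p = 0.091), the single member to pass there (1.18%, beside 9.61% of all genes) and 0 without the block. Its parent Rpl22 was at 89.7, 76.2 and 77.3 CPM in RV at 0 h and at 100.2, 86.9 and 99.8 CPM at 8 h, with log2 fold changes of 0.25 in RV and 0.22 in LV (edgeR adjusted p = 0.29 and 0.27).

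The remaining paralogs and parents follow. Rps27l, a p53-responsive paralog of Rps27, was at 26, 23.9 and 29.9 CPM in LV at 0 h and at 41.9, 30.1 and 34.2 CPM at 8 h. The groups just failed to overlap, with a log2 fold change of 0.41 (edgeR adjusted p = 0.15), and in RV it was 0.24 (edgeR adjusted p = 0.38). Rps27 had 0.50 and 0.64 (edgeR adjusted p = 0.12 and 0.13). Rpl36al, an intronless paralog of Rpl36a, had 0.28 and 0.33 (edgeR adjusted p = 0.25 and 0.20) with separate groups in both ventricles. Rpl7l1, a like-protein of Rpl7, rose in RV by 0.37 ± 0.13, below the fold threshold (edgeR adjusted p = 0.098), and had 0.26 in LV (edgeR adjusted p = 0.20). Rpl10l was listed at 3 to 17 counts and Rpl39l at 0 to 7.42 counts per library, too few for a reading. Rps27rt, a retrocopy, went from 8.24 to 186 counts per library without order among groups, and its RV log2 fold change of -0.32 was 0.17 with the block.

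Rps19bp1, the binding partner, was higher at 8 h as well. It was at 4.00, 3.42 and 4.11 CPM in RV at 0 h and at 6.62, 4.4 and 7.85 CPM at 8 h. It rose by 0.73 ± 0.26 on the log2 scale (edgeR adjusted p = 0.092), and in LV it had 0.75 ± 0.27 (edgeR adjusted p = 0.15).

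Rpl12 and Rps12 had the largest log2 fold changes of the core proteins in RV, and both rested on few reads. Rpl12 (chromosome 2, 32961559 to 32965345) was at 10.4, 7.86 and 8.91 CPM in RV at 0 h and at 19.6, 12.7 and 28.9 CPM at 8 h, and rose by 1.19 ± 0.31 (edgeR adjusted p = 0.035). Rps12 (chromosome 10, 23785183 to 23787275) was at 9.41, 7.21 and 9.04 CPM and then at 17.4, 11.7 and 25.3 CPM, and rose by 1.11 ± 0.29 (edgeR adjusted p = 0.035). Only 12.6% of the counts of Rpl12 and 30.7% of those of Rps12 were on transcripts annotated as coding, beside 91.0% over the family. Counting coding transcripts alone, the RV log2 fold changes were 0.22 (edgeR adjusted p = 0.65) and 0.58 (edgeR adjusted p = 0.25). With the near copies added they were 0.46 (edgeR adjusted p = 0.21) and 0.78 (edgeR adjusted p = 0.099).

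Other members also moved with this choice. Rpl10, the protein that completes the large subunit, had log2 fold changes of 0.01 in LV and 0.17 in RV, the lowest of the core proteins, and 0.26 and 0.40 with its copies (edgeR adjusted p = 0.24 and 0.17), which held 59.5% of the summed counts. With library totals alone it was at -0.15 in LV and -0.07 in RV, and on coding transcripts at -0.00103 in LV. Rpl27 had 0.28 in LV and 0.45 with its copies, but 0.54 in RV and 0.38 with them. Rpl5 had 0.30 in LV and 0.26 in RV, and 0.31 and 0.41 with the copies. On coding transcripts alone, Rpl35 went from 0.58 to 0.28 in LV, Rpl10a from 0.66 to 0.36 in RV (edgeR adjusted p = 0.18, so its call there was lost, as it was at 0.57 with annotated pseudogenes added, edgeR adjusted p = 0.10) and Rpl14 from 0.49 to 0.29 in RV. None of these values for Rpl10, Rpl27, Rpl5, Rpl35 and Rpl14 passed the threshold. The family's median at 8 h was 0.44 in LV and 0.46 in RV with near copies added, and 0.45 and 0.48 on coding transcripts alone.

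Between the ventricles the family differed little. No member was called for LV against RV at 0, 4 or 8 h by edgeR without a block, beside 0.159%, 0.0133% and 0.0331% of all genes. At an unadjusted p under 0.05 there were 0, 0 and 1 members, beside 3.18%, 2.9% and 11% of all genes, and DESeq2 called none. The medians were -0.07, -0.04 and -0.08, beside -0.01, -0.00084 and 0.01 over all genes. Their sign rested on single libraries: with 1 library left out they ran from -0.15 to 0.00067 (without LV 0 h number 2), from -0.16 to 0.0658 (without LV 4 h number 2) and from -0.24 to 0.0815 (without RV 8 h number 3). They were also above 0 without RV 4 h number 1 and without LV 8 h number 2. Because libraries of the same number and time deviated together across ventricles, the fit with each such pair as a block is the closer comparison. It called 1 member at 8 h, beside 8.7% of all genes, and 3 of 85 (3.53%) passed the adjusted p, beside 31.8% of all genes. Rpl22l1 was lower in LV than in RV by -0.75 ± 0.14 on the log2 scale (edgeR adjusted p = 0.0030), Rpl12 was lower by -0.26 ± 0.08 (edgeR adjusted p = 0.037) and Rps27l higher by 0.18 ± 0.07 (edgeR adjusted p = 0.071). With near copies added to the parents, Rpl12 was at -0.09 (edgeR adjusted p = 0.39) and Rps12 at -0.24 (edgeR adjusted p = 0.081).

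The test of the storage change itself between ventricles singled out few members. No member passed for the LV change minus the RV change at 4 h or 8 h without a block, where 0 of all genes passed in either, 0 members had an unadjusted p under 0.05 beside 1.01% and 4.14% of all genes, and DESeq2 called none. The medians were 0.03 and -0.01, and with 1 library left out they ran from -0.0916 to 0.12 and from -0.16 to 0.15, so neither sign held. With the block, 2 of 85 members (2.35%) passed at 8 h, beside 11.4% of all genes. These were Rps12 at -0.45 ± 0.13 (edgeR adjusted p = 0.067) and Rpl12 at -0.37 ± 0.12 (edgeR adjusted p = 0.084), a smaller rise in LV than in RV. With near copies added, the values were -0.11 (edgeR adjusted p = 0.64) and 0.0021 (edgeR adjusted p = 0.99). On coding transcripts alone, without the block, Rpl12 had the larger log2 fold change in LV, 0.45 beside 0.22 in RV, and Rps12 had 0.35 and 0.58. For Rpl22l1 the difference was -0.55 and did not pass (edgeR adjusted p = 0.12).

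Genes that build, regulate or partner the ribosome were read from 4 other lists. Of 38 genes of ribosome biogenesis and RNA polymerase I, 10 rose in LV after 8 h of storage and 20 in RV, and none fell, with medians of 0.27 and 0.54, while 5.4% and 13.7% of all genes rose and 2.25% and 7.19% fell. With the block, 23 rose and 2 fell in RV, beside 18.5% and 14.6% of all genes. At 4 h, 5 rose in LV and 14 in RV, beside 2.24% and 6.38% of all genes, with medians of 0.26 and 0.44. Nop58, a core protein of the box C/D particles that methylate ribosomal RNA, was at 23.3, 18.5 and 16.7 CPM in RV at 0 h, at 72.5, 43.5 and 48.4 CPM at 4 h and at 104, 55.3 and 124 CPM at 8 h. It rose at 8 h by 2.30 ± 0.32 on the log2 scale in RV (edgeR adjusted p = 0.0032) and by 1.38 ± 0.28 in LV (edgeR adjusted p = 0.041). Gnl3, the nucleolar GTPase nucleostemin, rose by 1.49 ± 0.22 in RV (edgeR adjusted p = 0.0037), and Rrs1, which brings the 5S particle into the pre-60S subunit, by 0.85 ± 0.14 in LV (edgeR adjusted p = 0.018). The lists were chosen with earlier results of these data known, and each comparison shares its 0 h libraries with the other.

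Of 20 translation factors and partners, many with TOP mRNAs of their own, 3 rose and 1 fell in LV at 8 h and 2 rose in RV, with a median of 0.20 in both. All genes that rose and fell were 5.4% and 2.25% in LV, and the 2 of 20 in RV lie below the 13.7% there and are no result about the list. With the block 5 rose and 2 fell in RV, beside 18.5% and 14.6% of all genes. Pabpc1, the poly(A)-binding protein, was at 101, 92.8 and 110 CPM in RV at 0 h and at 205, 156 and 284 CPM at 8 h. It rose by 1.11 ± 0.24 there (edgeR adjusted p = 0.016) and by 0.71 ± 0.17 in LV (edgeR adjusted p = 0.057). Eef1a1, the factor that delivers aminoacyl-tRNA, rose by 0.95 ± 0.27 in RV (edgeR adjusted p = 0.048) and by 0.62 ± 0.18 in LV (edgeR adjusted p = 0.090). Naca, part of the complex that meets the new chain at the tunnel exit and also a muscle gene, fell by 0.49 on the log2 scale in LV (edgeR adjusted p = 0.087).

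Of 22 regulators of TOP mRNAs and growth signaling, 3 rose and 2 fell in RV at 8 h, near the 13.7% and 7.19% of all genes. In LV 0 rose and 1 fell, beside 5.4% and 2.25% of all genes. With the block 3 rose and 7 fell in RV, beside 18.5% and 14.6% of all genes. Myc, which drives ribosome production, was at 19.1, 12.2 and 9.80 CPM in RV at 0 h and at 118, 77.7 and 102 CPM at 8 h, and rose by 2.87 ± 0.33 (edgeR adjusted p = 0.0014). Ddit4l, an inhibitor of mTOR signaling, was at 4.97, 3.18 and 3.59 CPM there and then at 0.64, 1.20 and 0.30 CPM, and fell by 2.47 on the log2 scale (edgeR adjusted p = 0.0073). In LV it fell by 1.51 (edgeR adjusted p = 0.082), and Mtor, at -0.50, did not pass (edgeR adjusted p = 0.11). Of 10 genes of ribosome quality control, 1 rose and 0 fell in LV at 8 h, beside 5.4% and 2.25% of all genes. In RV 1 rose and 1 fell, beside 13.7% and 7.19%. The list's medians were -0.02 in LV and 0.01 in RV, and counts this small are no result about the list. Zfp598, which senses collided ribosomes, rose by 0.78 in RV (edgeR adjusted p = 0.013) and by 0.46 in LV (edgeR adjusted p = 0.064). Ankzf1, which frees stalled chains, fell by 0.75 in RV (edgeR adjusted p = 0.014). Pelo, a rescue factor, had 0.48 in LV (edgeR adjusted p = 0.13).

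**Figure D5:**
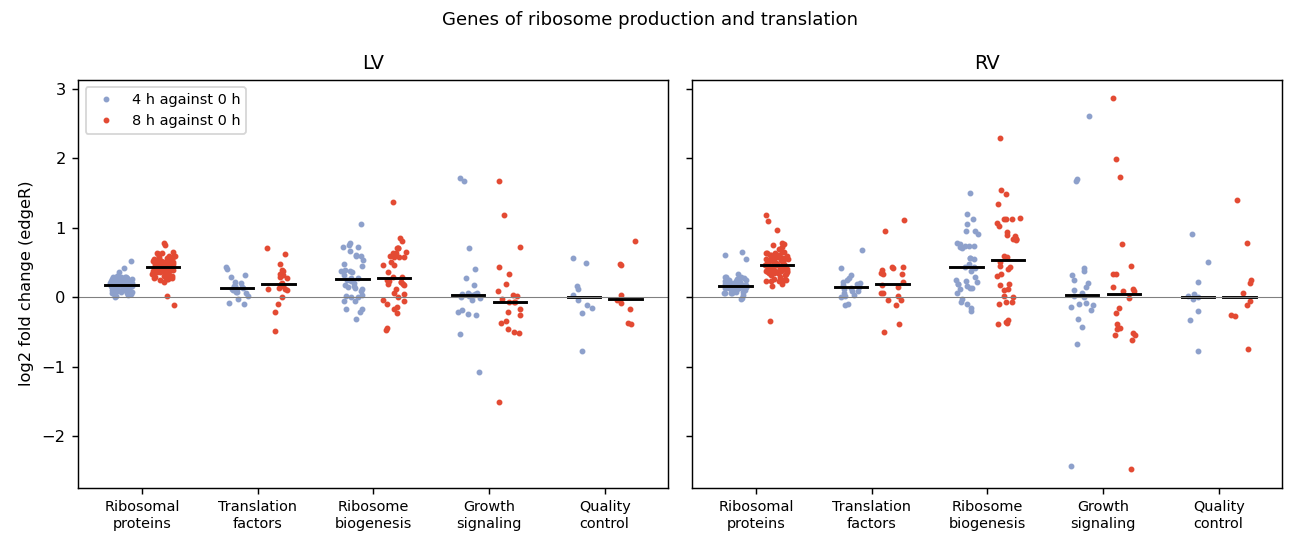
Log2 fold change of each gene at 4 h (blue) and 8 h (red) against 0 h in LV (left) and RV (right) for the ribosomal proteins (83 genes, without Rpl10l and Rps27rt) and 4 related lists, with black lines at the medians. The biogenesis list has 8 h medians of 0.27 in LV and 0.54 in RV, and Nop58 and Myc reach 2.30 and 2.87 in RV.

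Several measures moved with the family at 8 h. The marker counts below stand beside 48.3% of all genes above 0 in LV and 45% in RV. By the adjusted p, 5.4% of all genes rose and 2.25% fell in LV, and 13.7% rose and 7.19% fell in RV. The summed cardiomyocyte markers were at 43337 to 53438 CPM in LV and 29309 to 58830 CPM in RV, with 6 of 8 genes lower in LV and 8 of 8 in RV, of which 1 and 0 passed. The lowest sum belonged to RV 8 h number 3, the library with the highest share of ribosomal protein counts (1.70%). Macrophage markers summed to 174 to 263 CPM in LV and 208 to 367 CPM in RV at 8 h, from 126 to 190 and 154 to 234 CPM at 0 h, with 6 of 7 genes higher in each ventricle and 0 and 4 passing. Fibroblast markers summed to 928 to 1412 and 1016 to 1875 CPM, from 787 to 872 and 914 to 986 CPM, with 6 of 7 higher and 0 and 1 passing. Neutrophil markers summed to 11.5 to 19.6 and 14.8 to 22.0 CPM, from 2.70 to 2.89 and 3.08 to 4.85 CPM, and with 3 of 5 tested genes passing in LV and 1 of 3 in RV, and their defining marker Ly6g stayed at or under 0.12 CPM. Erythroid markers summed to 11.9 to 196 and 3.96 to 52.3 CPM, from 4.51 to 6.21 and 2.40 to 5.93 CPM, with 4 of 4 tested genes higher in each ventricle and 0 passing. Smooth muscle and pericyte markers summed to 827 to 950 and 843 to 1286 CPM, from 698 to 811 and 695 to 927 CPM, with 4 of 6 genes higher and 2 lower ones passing in RV. Endothelial markers overlapped in their sums, with 5 of 8 genes higher and 1 lower one passing in RV, and 0 passing in LV. Of 4 atrial genes all were higher in each ventricle, and of 5 adipocyte genes 3 in LV and 4 in RV, with 0 passing in either list. The atrial sums overlapped, at 263 to 357 and 119 to 800 CPM, from 127 to 296 and 111 to 374 CPM. The adipocyte sums also overlapped, and their means were lower at 8 h, at 4919 CPM in LV and 4610 in RV, from 5152 and 5075 CPM.

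Gene length moved with it in LV as well. Of the 86 members, 46 had a mean effective length of at most 500 bases and 79 of at most 1000. Over the 309 other protein-coding genes of at most 500 bases the median log2 fold change at 8 h was 0.28 in LV, and over 314 such genes in RV it was 0.03. Over those of 500 to 1000 bases it was 0.14 in LV and -0.04 in RV. The family medians of 0.43 and 0.47 are over members of all lengths. The mitochondrial share of counts at 8 h is given above, and leaving the mitochondrial genes out gave medians of 0.43 in LV and 0.47 in RV. The part of these measures in the family's values was not tested.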

How the data were processed

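The deposited file of each of the 18 libraries lists transcripts with estimated counts and TPM, which the authors made with kallisto from paired-end reads of mRNA-selected libraries, aligned to GRCm38 transcripts. The deposited TPM values are the authors' estimates per effective transcript length and were used only to compare levels between genes and for the ratios of 4 parent and paralog pairs. Estimated counts were summed per gene, with 110203 of 111462 transcripts matched to GENCODE M21 and 1259 left out, and rounded to whole numbers.

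Genes were filtered with filterByExpr, scaled by TMM and tested with edgeR 4.0.16 (quasi-likelihood, R 4.3.3), with Benjamini-Hochberg adjustment over all genes tested. Times were compared within a ventricle in a fit of its 9 libraries, and ventricles and their changes in a fit of all 18. Calls took both the adjusted p (under 0.1) and the fold (over 1.5), and a prior count of 2 was used for log2 CPM. The scripts were tested on simulated data. Near copies were found with BLAST 2.17.0 (identity of at least 95%, at least 80% of the copy aligned). The TPM ratios of 4 paralog pairs in 6 comparisons were tested with exact permutation tests (24 tests, unadjusted).

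Over all tested genes, libraries of the same number deviated together within RV, between LV 8 h and 4 h and between ventricles. Each such pair had a correlation over 0.1, with lowest values of 0.11, 0.36 and 0.33 in that order. LV 0 h and the later LV groups did not deviate together (lowest 0.04 and -0.02). Pairs of different numbers had a mean below 0 in every comparison. Single ones also passed 0.1, up to 0.23 between 8 h and 4 h in each ventricle and 0.16 between ventricles at 8 h. The pairing comes from these values, since the labels do not tie numbers to hearts.

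The members and lists were chosen with earlier results of these data known. Named genes were all paralogs with their parents, the P-stalk genes, Rps19bp1, Rpl5, Rpl11, Rpl13a, Rps3, Rps6, Rps27a and Rpsa, every member called (where over 12 were called, the 6 with the smallest adjusted p in each direction), the 3 highest and 3 lowest by TPM, members whose change moved over 1.5 times with pseudogenes added or coding transcripts alone, and the 2 genes of each other list with the smallest adjusted p at 8 h in each ventricle. A gene that this rule names is not reported here. Alternatives were DESeq2 1.42.0, RLE scaling, library totals, no filter, the replicate block, transcript-length offsets, mitochondrial genes left out, annotated pseudogenes added, coding transcripts alone, all 18 libraries in 1 fit and each library left out. Near copies, with and without the block, and replicate number 2 left out were added after seeing the data.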

Additional observations from a re-analysis of the deposited data

Results flagged for a closer look

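Rps12 and Rpl12 differed between the ventricles in their change from 0 h to 8 h. The LV change minus the RV change, in the fit with each pair of same-numbered libraries as a block, was -0.45 for Rps12 (edgeR adjusted p = 0.067) and -0.37 for Rpl12 (edgeR adjusted p = 0.084), so in that fit both were raised less in LV than in RV. Of 85 members, 2 (2.35%) passed that test, beside 11.4% of all genes. Without the block the adjusted p was 0.9999 for both (edgeR), and with near copies added to the block fit it was 0.64 and 0.99. On coding transcripts alone, without the block, the order turned for Rpl12, at 0.45 in LV and 0.22 in RV. Rps12 was at 0.35 in LV and 0.58 in RV there.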

How the results depend on the processing

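The median change of the family kept its sign from 0 h to 4 h and 8 h and from 4 h to 8 h in each ventricle under every alternative run, its lowest value being 0.0030 in RV at 4 h with library totals alone, while the number of members past a threshold moved with most of them. In LV at 8 h against 0 h, 2 members were called and 8 passed the adjusted p. DESeq2 gave 9 and 41, RLE scaling gave 4 called, library totals gave 0 and 0, no filter gave 5 passing, transcript-length offsets gave 1 and 2, coding transcripts alone gave 1 and 4, all 18 libraries in 1 fit gave 0 and 3, near copies gave 5 called, and leaving out replicate number 2 gave 0 and 0. The replicate block gave 7 and 68 there, and near copies with the replicate block gave 7 and 73. Over all genes, same-numbered libraries of LV 0 h and LV 8 h did not deviate together. For the family, number 2 held the lowest value of 68 of 85 members in LV 0 h and of 81 in LV 8 h, a pattern that the block takes out. The counts over all genes moved as well: 787 of 14564 passed higher and 328 lower in the main fit. DESeq2 had 1413 and 814 of 22845, library totals 732 and 1321 of 14564 and the replicate block 1578 and 1075 of 14564. Without replicate number 2 there were 24 and 2 of 14690. In RV, 9 were called and 10 passed. DESeq2 gave 21 and 28, library totals 3 and 4 (3 higher and Rpl3l lower), no filter 6 passing, coding transcripts alone 2 and 2, all 18 libraries 16 and 42, no replicate number 2 gave 3 and 3, and the replicate block 58 passing, with or without near copies. Of all genes in RV, 2001 of 14646 passed higher and 1053 lower in the main fit. DESeq2 had 2451 and 1178 of 22849, library totals 1695 and 4282 of 14646 and the replicate block 2707 and 2136 of 14646. All 18 libraries had 2660 and 1976 of 15093, and no replicate number 2 had 978 and 207 of 14875. The replicate block gave 1 passing in RV at 4 h, with or without near copies, 1 called and 3 passing between ventricles at 8 h, with or without near copies, and 2 passing for the difference in change at 8 h. With 1 library left out, LV had 0 to 45 called and 0 to 73 passing, and RV 0 to 50 and 0 to 66. The calls over all genes moved in these fits too, as given above. With the replicate block in LV at 8 h, 15 of 38 biogenesis genes rose and 1 fell, and 2 of 22 growth signaling genes rose and 5 fell. Of all 14564 genes, 1578 rose and 1075 fell in that fit. The cause of these moves was not tested.

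As a share of the counts outside the mitochondrial genome, the family took 1.55%, 1.62% and 2.06% in LV at 0, 4 and 8 h and 1.67%, 1.66% and 2.11% in RV. Signs turned for Rpl10 in LV (-0.15 with library totals, -0.0771 with length offsets, -0.00103 on coding transcripts, -0.0918 to 0.0919 with 1 library left out) and in RV (-0.0707 with totals, -0.0075 to 0.35), Rps2 in RV (-0.0395 with totals), Rpl10l in LV (0.31 without replicate number 2, -1.18 to 0.22) and Rps27rt in RV (0.17 with the replicate block, 0.16 with near copies too, -0.89 to 0.12). Depth limits Rpl10l and Rpl39l, with at most 17 and 7.42 counts.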
